A study of Homo sapiens with 10 samples.

Results

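The sites described here are the places where STAT3 or the NF-κB subunit NFKB1 was found on chromatin of non-transformed ER-Src cells. They are the peaks of 1 STAT3 list and 1 NFKB1 list on chromosomes 1 to 22 and X, and a STAT3 site and an NFKB1 site were counted as shared when their peak summits, the positions with the most overlapping reads, lay within 300 bp of each other. The lists hold 42810 STAT3 and 13252 NFKB1 sites. They make up 47982 distinct sites when each shared site is counted by its STAT3 summits, out of 879550 peaks in the 10 lists of the series. Of the distinct sites, 8085 were shared, 34725 were STAT3-only and 5172 were NFKB1-only.

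ER-Src cells are the established mammary epithelial line MCF-10A-ER-Src, which carries the v-Src kinase fused to the hormone-binding part of the estrogen receptor and held inactive until 4-hydroxy-tamoxifen is added. All 10 libraries come from this line, and the fusion protein is therefore present in the non-transformed cells too. Those cells received ethanol, the solvent (36 h in the library names), and the transformed cells received 1 µM 4-hydroxy-tamoxifen for 12 h. STAT3, NFKB1, FOS, JUN and JUNB, the last 3 being subunits of AP-1, were each mapped by chromatin immunoprecipitation and sequencing (ChIP-seq) in 1 library per state. The catalogue number of the STAT3 antibody is the one that the study lists for the form phosphorylated on tyrosine. No value has a replicate, and no p-value is given. The 95% intervals below are Wilson intervals for shares and order-statistic intervals for medians. They cover the counting of sites within a list and not the variation between cultures.

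STAT3 is a transcription factor that is phosphorylated downstream of cytokine receptors and of Src, then moves to the nucleus and binds DNA as a dimer. NFKB1 encodes a precursor that is processed to a DNA-binding subunit of NF-κB, a family held in the cytoplasm by inhibitor proteins until inflammatory signals release it. AP-1 is a dimer of FOS and JUN family proteins that binds many enhancers of epithelial cells. STAT3 and NF-κB are both known as parts of the inflammatory circuit that keeps ER-Src cells transformed, and the comparison asks how far their sites already coincide before the switch.

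The 2 libraries differ in depth. After the authors' filter, STAT3 had 10929003 reads and NFKB1 4837474, a ratio of 2.26. The weakest NFKB1 peak has 4 reads over its summit, or 0.827 per 1000000 filtered reads, and the weakest STAT3 peak has 5, or 0.457 on that scale. A site without NFKB1 and a site whose NFKB1 signal is below what the shallower library could show cannot be told apart. The FOS, JUN and JUNB libraries of non-transformed cells had 18619521, 15852999 and 9178601 filtered reads.

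Most NFKB1 sites lay at a STAT3 site, and most STAT3 sites did not lie at an NFKB1 site. Of the 13252 NFKB1 sites, 8080 had a STAT3 summit within 300 bp, which is 61.0% (60.1 to 61.8%). Of the 42810 STAT3 sites, 8085 had an NFKB1 summit, which is 18.9% (18.5 to 19.3%). The windows of 300 bp on each side of all STAT3 summits cover 0.939% of the effective genome of 2700000000 bp, and those of the NFKB1 summits cover 0.292%. Both shares moved with the lengths of the lists. With the STAT3 list cut to its 13252 most significant peaks, 35.1% of NFKB1 sites and 34.6% of STAT3 sites were shared. Among peaks with at least 2 reads per 1000000 filtered reads over the summit in both lists, the shares were 22.7% and 19.5%.

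Where both proteins were found, their summits nearly coincided. Over the 7976 pairs of summits that are each other's nearest, the median distance was 40 bp (39 to 41 bp), with quartiles of 17 and 77 bp. In 58.5% of pairs the summits were within 50 bp and in 83.1% within 100 bp. The 300 bp limit cut a thin tail. There were 348 STAT3 sites with an NFKB1 summit between 200 and 300 bp away, just inside the limit, and 274 between 300 and 400 bp away, just outside. The NFKB1-only sites were more often in the wider neighbourhood of the other protein than the STAT3-only sites. A STAT3 summit lay within 10000 bp of 43.8% of NFKB1-only sites (42.5 to 45.2%), at a median distance of 13320 bp. An NFKB1 summit lay within 10000 bp of 20.6% of STAT3-only sites (20.2 to 21.1%), at a median of 49107 bp, the NFKB1 list being the shorter of the pair.

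AP-1 was present at nearly every shared site and was less frequent where either protein was found alone. A summit of FOS, JUN or JUNB lay within 300 bp at 79.0% of all 47982 distinct sites. It did so at 7910 of 8085 shared sites, or 97.8% (97.5 to 98.1%), at 26478 of 34725 STAT3-only sites, or 76.3% (75.8 to 76.7%), and at 3495 of 5172 NFKB1-only sites, or 67.6% (66.3 to 68.8%). The intervals of the 3 classes do not overlap, and the order of shared, STAT3-only and NFKB1-only was the same on 23 of 23 chromosomes. Sites and chromosomes come from the same libraries and are not replicates, so both facts describe these libraries alone. Measured from the NFKB1 summit, the share at shared sites was 97.8% as well. For scale, the windows around AP-1 summits cover 3.56% of the effective genome. This is not a matched expectation, since open chromatin enters all of the lists, which were called without a control.

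The classes differed more widely in how many of the AP-1 proteins were present. All 3 were found at 43.7% of the distinct sites, with 72.5% (71.5 to 73.5%) of shared, 39.2% (38.7 to 39.8%) of STAT3-only and 28.5% (27.3 to 29.8%) of NFKB1-only sites. FOS was the most frequent in every class, at 93.9% of shared, 68.6% of STAT3-only and 57.4% of NFKB1-only sites. JUN followed with 91.3%, 60.1% and 48.5%, and JUNB with 76.0%, 46.5% and 36.7%. JUNB without FOS or JUN was rare, at 23 shared, 242 STAT3-only and 67 NFKB1-only sites, and the most frequent pair was FOS with JUN, at 1221, 4816 and 570 sites. The order of the 3 proteins is also the order of their filtered reads, and the part of depth in it was not tested.

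**Figure D1:**
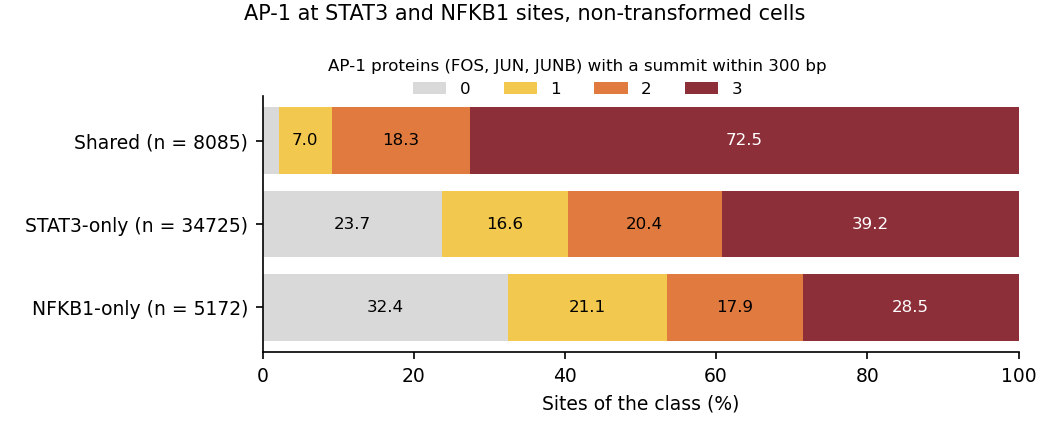
Share of the sites of each class (horizontal axis, percent) with 0, 1, 2 or 3 of FOS, JUN and JUNB, the AP-1 proteins mapped, within 300 bp in non-transformed cells. The bars have no replicate error. All 3 proteins were found at 72.5% of shared sites, 39.2% of STAT3-only and 28.5% of NFKB1-only sites, and none at 2.16%, 23.7% and 32.4%.

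AP-1 was also stronger where STAT3 and NFKB1 met. The strength of a peak is given here as fold enrichment, the reads over the summit divided by the local background. A constant is added to both before the division. Where the background holds few reads, the value largely follows the read count, so libraries of unequal depth are not on the same scale. Among sites with FOS, its median fold enrichment was 23.4 (22.7 to 23.9) at shared sites, 15.3 (14.9 to 15.4) at STAT3-only sites and 11.5 (10.9 to 12.0) at NFKB1-only sites. JUN was at 11.4, 7.97 and 7.25, and JUNB at 13.4, 10.6 and 9.59. The distance to AP-1 differed little between the classes. The median distance from the STAT3 or NFKB1 summit to the nearest FOS summit was 36 bp at shared, 39 bp at STAT3-only and 33 bp at NFKB1-only sites. At the 7466 pairs with FOS within reach of both, the STAT3 summit was the nearer to FOS in 50.5% (49.3 to 51.6%) and the NFKB1 summit in 48.0% (46.9 to 49.1%), and each lay at a median of 36 bp from it.

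Read the other way, the second protein was found more often with each further AP-1 protein present. Among NFKB1 sites, 181 of 1858 (9.74%) had STAT3 where no AP-1 protein was found, 548 of 1640 (33.4%) where 1 was, 1499 of 2426 (61.8%) where 2 were and 5852 of 7328 (79.9%) where all 3 were. Among STAT3 sites, the share with NFKB1 went from 175 of 8422 (2.08%) through 566 of 6338 (8.93%) and 1481 of 8561 (17.3%) to 5863 of 19489 (30.1%). Where a single AP-1 protein was present, the intervals for FOS, JUN and JUNB overlapped. Among NFKB1 sites, STAT3 was found at 33.4% (30.4 to 36.4%) of those with FOS alone, 34.5% (30.9 to 38.4%) with JUN alone and 26.4% (18.4 to 36.3%) with JUNB alone.

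Strength told the lists apart. A strong STAT3 site was far more often shared than a weak one, whereas the strength of an NFKB1 site said little about whether STAT3 was there. From the lowest to the highest decile of STAT3 sites by fold enrichment, the share with NFKB1 climbed from 5.77% (247 of 4281) to 42.9% (1838 of 4281), with a step up at each decile. Among NFKB1 sites it stayed between 56.8% and 61.7% over the lowest 9 deciles and was 70.7% (68.2 to 73.1%) in the highest. In medians, shared STAT3 sites had a fold enrichment of 9.48 (9.33 to 9.76) and STAT3-only sites 6.22, with 15 against 10 reads over the summit and a peak length of 287 against 199 bp. Shared NFKB1 sites were at 7.25 (7.21 to 7.25) and NFKB1-only sites at 7.18 (7.09 to 7.24), with 8 reads in both and lengths of 194 and 168 bp. Since the NFKB1 median is 8 reads, the scale of NFKB1 strength is coarse, and the shallow library leaves neighbouring values close to the counting error of a few reads.

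The link between AP-1 and strength ran the same way. In STAT3-only sites, AP-1 was found at 49.7% of the lowest decile and 93.9% of the highest, and the sites without AP-1 had a median fold enrichment of 5.47 against 6.84 with it. In shared sites ordered by STAT3 strength, AP-1 was already at 90.3% in the lowest decile and reached 99.6%. In NFKB1-only sites the share was between 59.6% and 67.1% over the lowest 8 deciles, then 76.8% and 86.6%. In shared sites ordered by NFKB1 strength it stayed between 96.7% and 98.9%.

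**Figure D2:**
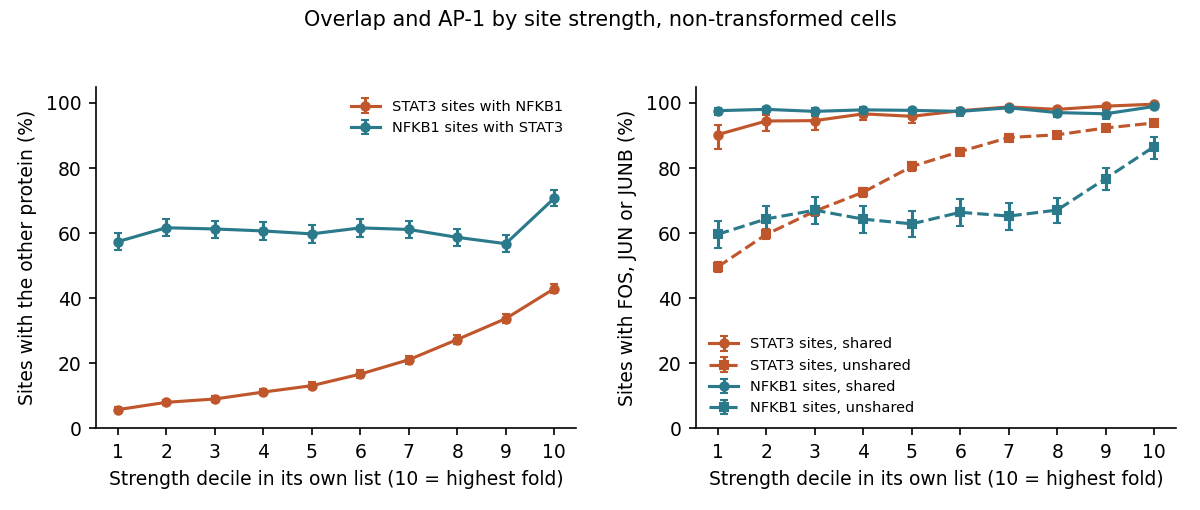
Share of sites with the other protein (left) and with FOS, JUN or JUNB (right), in percent, by decile of fold enrichment within the STAT3 or the NFKB1 list of non-transformed cells. Points are shares with Wilson 95% intervals. The share of STAT3 sites with NFKB1 climbed from 5.77% to 42.9%, while that of NFKB1 sites with STAT3 stayed between 56.8% and 61.7% up to the ninth decile and was 70.7% in the highest.

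AP-1 and strength were therefore also read together. Among STAT3 sites with all 3 AP-1 proteins, the share with NFKB1 was 15.2% in the weakest quartile of the list and 44.7% in the strongest. Among STAT3 sites without AP-1 it was 1.17% and 6.16%, so that even the strongest AP-1-free sites were less often shared than the weakest sites with the full set. Among NFKB1 sites with all 3 AP-1 proteins the share with STAT3 was between 77.6% and 81.9% in every quartile, and among those without AP-1 between 8.24% and 13.0%. At a given number of AP-1 proteins, NFKB1 strength thus came with small differences in the share, the widest range being 56.2% to 65.7% for 2 proteins.

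**Figure D3:**
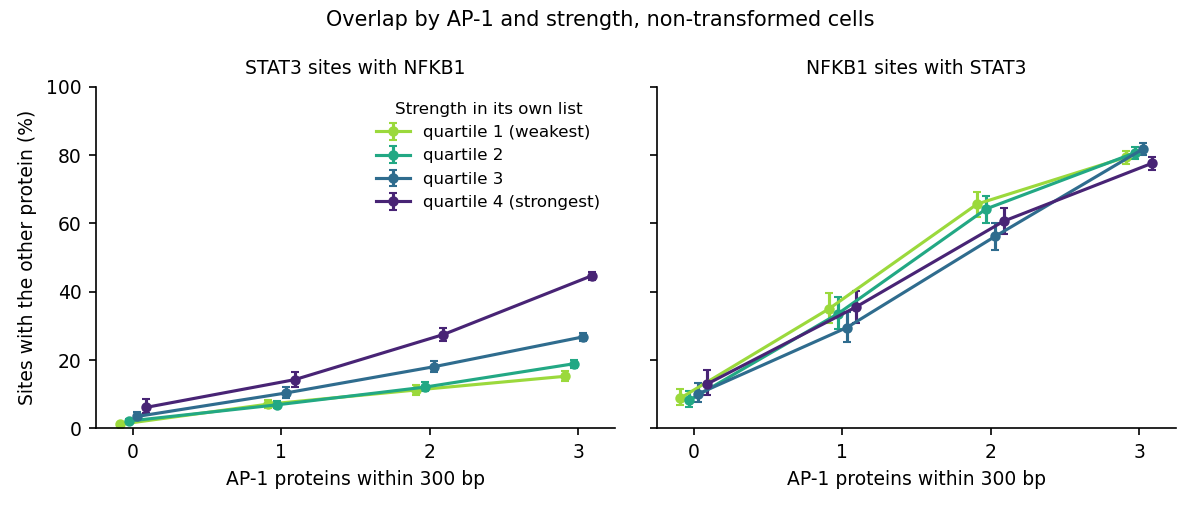
Share of STAT3 sites with NFKB1 (left) and of NFKB1 sites with STAT3 (right), in percent, by the number of AP-1 proteins within 300 bp, with 1 line for each quartile of fold enrichment in the own list and Wilson 95% intervals. The lines fan out for STAT3, from 15.2% to 44.7% at 3 AP-1 proteins, and lie together for NFKB1, between 77.6% and 81.9%.

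At shared sites, the strengths of STAT3 and NFKB1 were only weakly related. Over the 7976 pairs, Spearman's rho of the fold enrichments was 0.12 and Pearson's r of their log2 values was 0.12. Both numbers are descriptions across sites, which are not independent replicates and share local copy number, mappability and chromatin. Within the sets of pairs with 0, 1, 2 and 3 AP-1 proteins, rho was 0.04 (165 pairs), 0.09 (541), 0.08 (1456) and 0.13 (5814). It was 0.09 over the 3907 pairs in the strongest quartile of STAT3 sites and between -0.02 and 0.01 in the other quartiles. Over the 163 pairs with a fold enrichment of at least 20 for both proteins it was 0.19, and across chromosomes it ran from -0.02 (X) to 0.23 (chromosome 19). Of the 803 pairs in the strongest 10% by STAT3, 128 were in the strongest 10% by NFKB1, which is 15.9% (13.6 to 18.6%).

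The balance between the proteins moved with AP-1. The median log2 ratio of STAT3 to NFKB1 fold enrichment was 0.33 (0.31 to 0.35) over all pairs, and the libraries' unequal depth means that only its change between sets of pairs can be read. It was -0.21 (-0.39 to -0.05) where no AP-1 protein was found, 0.01 (-0.06 to 0.09) with 1, 0.21 (0.14 to 0.27) with 2 and 0.41 (0.37 to 0.44) with all 3. In medians, the STAT3 side of the ratio moved. The median STAT3 fold enrichment at shared sites was 6.22, 6.84, 8.28 and 10.3 in these sets. That of NFKB1 stayed between 7.01 and 7.25. The NFKB1 median is 8 reads and its weakest peak 4, so a change on that side could be missed on so coarse a scale.

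**Figure D4:**
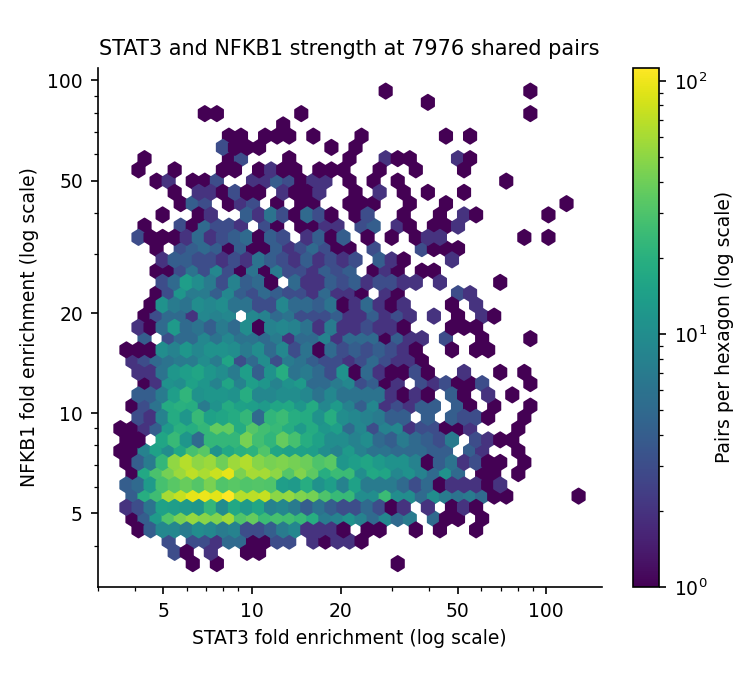
Fold enrichment of NFKB1 (vertical, log scale) against that of STAT3 (horizontal, log scale) at 7976 pairs of nearest summits in non-transformed cells, with the color giving the number of pairs per hexagon. The cloud has little slope (rho 0.12), and its lower edge is banded, since a weak NFKB1 peak holds a small whole number of reads.

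The strongest sites of each class are given as examples, and they are extremes of the class, not typical members. Positions are given on hg19, the build named in the processing notes. The shared pair with the smallest sum of ranks was chr1:121484081-121485544, with a STAT3 fold enrichment of 92.1 (147 reads) and an NFKB1 fold enrichment of 92.6 (114 reads), and with JUN at 74.0 and JUNB at 76.2. The next was chr6:58776456-58779284, with STAT3 at 86.5, NFKB1 at 77.3, FOS at 81.0, JUN at 80.2 and JUNB at 78.3. These peaks are 1464 and 2829 bp long, and every protein found at them in non-transformed cells had a fold enrichment between 74.0 and 92.6. The median length of the STAT3 peaks at shared sites was 287 bp. No regions were left out for repeats or copy number, and whether these peaks are artifacts was not tested. At chr5:119474723-119475171, a peak of 449 bp, STAT3 was at 54.8, NFKB1 at 58.6 with its summit 19 bp away, FOS at 69.0, JUN at 26.9 and JUNB at 41.7. The other 3 of the top 6 had STAT3 at 56.4 to 114 and NFKB1 at 43.5 to 65.6, with FOS between 15.8 and 19.7.

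Shared sites without AP-1 were few. Their STAT3 peaks were weaker than those of shared sites with AP-1, at a median fold enrichment of 6.22 (6.19 to 6.80) against 9.63 (9.33 to 9.87), and their NFKB1 peaks were not, at 7.24 (6.44 to 7.89) against 7.25 (7.21 to 7.25). The first by rank was chr1:228121943-228122947 with STAT3 at 34.7 (63 reads) and NFKB1 at 16.9 (22 reads). FOS, JUN and JUNB had summits 345, 450 and 462 bp from the STAT3 summit, just outside the limit. At chr19:4540010-4540511 STAT3 was at 29.9 and NFKB1 at 14.5, and at chr11:18287553-18287792 they were at 16.2 and 11.3. The nearest AP-1 summit was 20059 bp from the former and 4441 bp from the latter, and in transformed cells both sites had weak FOS (5.69 and 7.76) and JUN (4.40 and 4.40) peaks.

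The strongest STAT3-only sites reached a STAT3 fold enrichment close to that of the strongest shared pairs. At chr1:150533736-150534916 STAT3 was at 112 (211 reads), with FOS at 5.72 and JUN at 7.13, and the nearest NFKB1 summit was 636 bp away. At chr5:140940187-140940835 STAT3 was at 99.6 with FOS at 13.4, JUN at 8.32 and JUNB at 5.40. At chr12:6444875-6445867 it was at 93.9 with FOS at 39.8, JUN at 9.67 and JUNB at 16.2. The strongest STAT3 site with neither NFKB1 nor AP-1 was chr3:12475531-12475959, at 83.3 (134 reads), and no summit of any protein lay within 300 bp of it in transformed cells. The next were chr17:7307450-7308025 at 59.7 and chr22:29138331-29138829 at 52.9, and in transformed cells STAT3 was still there at 50.7 and 50.9.

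The strongest NFKB1-only sites included places where STAT3 was just outside the limit. At chr6:89745151-89746117 NFKB1 was at 66.8 (82 reads) with JUNB alone of the AP-1 proteins (4.94), and a STAT3 summit lay 380 bp away. At chr1:207058672-207059346 NFKB1 was at 55.1 and a STAT3 summit lay 392 bp away. The top site was chr11:76401799-76402112, with NFKB1 at 74.9 (92 reads), all 3 AP-1 proteins, FOS at 23 reads, JUN at 17 and JUNB at 16, and with the nearest STAT3 summit at 72941 bp. At chr3:61912572-61912944 NFKB1 was at 62.1 with FOS at 10.9, JUN at 10.8 and JUNB at 6.24. In transformed cells a STAT3 summit lay within 300 bp at all 6 of the strongest NFKB1-only sites, with a fold enrichment between 6.45 and 75.2. The first 3 NFKB1-only sites without AP-1 were chr6:76197839-76198082 at 36.5, chr4:7219807-7220157 at 33.0 and chr7:34183077-34183337 at 30.4. NFKB1 was still there in transformed cells, at 27.2, 26.6 and 31.4, and FOS and JUN peaks of at most 8.43 were then present at all 3.

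The lists from transformed cells were not used to make the classes, and the classes fared differently in them. Among all 47982 sites, a STAT3 summit was within 300 bp in transformed cells at 68.4% and an NFKB1 summit at 64.3%. Shared sites kept both proteins most often: STAT3 was present at 7330 of 8085 (90.7%), NFKB1 at 7557 (93.5%), both at 7041 (87.1%) and neither at 239 (2.96%). At 5327 shared sites (65.9%) a summit of each of the 5 proteins lay within 300 bp in both states. STAT3-only sites kept STAT3 at 23036 of 34725 (66.3%) and had NFKB1 at 19016 (54.8%). NFKB1-only sites kept NFKB1 at 4269 of 5172 (82.5%) and had STAT3 at 2474 (47.8%).

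Whether the missing protein was present in transformed cells went with AP-1 in non-transformed cells. NFKB1 was found at 910 of 8247 STAT3-only sites without AP-1 (11.0%, 10.4 to 11.7%) and at 18106 of 26478 with it (68.4%, 67.8 to 68.9%). By the number of AP-1 proteins, 0 to 3, the share was 11.0%, 36.9%, 61.4% and 85.4%. STAT3 was found at 357 of 1677 NFKB1-only sites without AP-1 (21.3%, 19.4 to 23.3%) and at 2117 of 3495 with it (60.6%, 58.9 to 62.2%), and by number at 21.3%, 41.6%, 56.2% and 77.4%. The contrast was present in every quartile of strength. In the weakest and the strongest quartile of the STAT3 list, NFKB1 was found at 6.86% and 28.8% of STAT3-only sites without AP-1 and at 54.6% and 83.6% with it. In the same quartiles of the NFKB1 list, STAT3 was found at 14.4% and 33.7% of NFKB1-only sites without AP-1 and at 53.2% and 67.1% with it. The NFKB1 library of transformed cells has 2.0 times the reads of the other, so that a protein newly bound and a protein newly detected cannot be told apart for NFKB1. The STAT3 library of transformed cells, with 8967267 reads, is the shallower of its pair.

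Whether a site kept its own protein went with AP-1 and with strength. STAT3 was still found at 2358 of 8247 STAT3-only sites without AP-1 (28.6%, 27.6 to 29.6%), and neither protein at 5645 (68.4%). NFKB1 was still found at 1187 of 1677 NFKB1-only sites without AP-1 (70.8%, 68.6 to 72.9%). With AP-1, STAT3-only sites kept STAT3 at 78.1% and NFKB1-only sites kept NFKB1 at 88.2%. By quartile of strength, from the weakest, STAT3-only sites kept STAT3 at 39.1%, 58.5%, 82.5% and 96.6%, and NFKB1-only sites kept NFKB1 at 61.4%, 78.6%, 92.5% and 99.3%. Shared sites kept STAT3 at 77.0% in the weakest and 97.2% in the strongest quartile of the STAT3 list. They kept NFKB1 at 88.0% and 99.2% in those of the NFKB1 list. Shared and unshared sites thus differed little in the strongest quartile. In the weakest quartile STAT3 was kept at 12.3% of STAT3-only sites without AP-1 and 59.7% with it, and NFKB1 at 40.3% and 73.6% of NFKB1-only sites. In the strongest quartile the differences were small, and the intervals with and without AP-1 overlapped for NFKB1 and not for STAT3. STAT3 was kept there at 94.4% (92.1 to 96.1%) without AP-1 and 96.7% (96.3 to 97.2%) with it, and NFKB1 at 98.6% (96.5 to 99.5%) and 99.5% (98.8 to 99.8%).

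AP-1 itself was found in transformed cells at 27.7% of the STAT3-only and 43.1% of the NFKB1-only sites that had lacked it. It was found at 112 of the 175 such shared sites (64.0%). Over all sites of these classes the shares were 79.3%, 77.9% and 98.3%. The FOS, JUN and JUNB libraries of transformed cells had 22082403, 18454386 and 15750765 filtered reads, each more than in non-transformed cells. AP-1 newly bound and AP-1 newly detected therefore cannot be told apart.

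**Figure D5:**
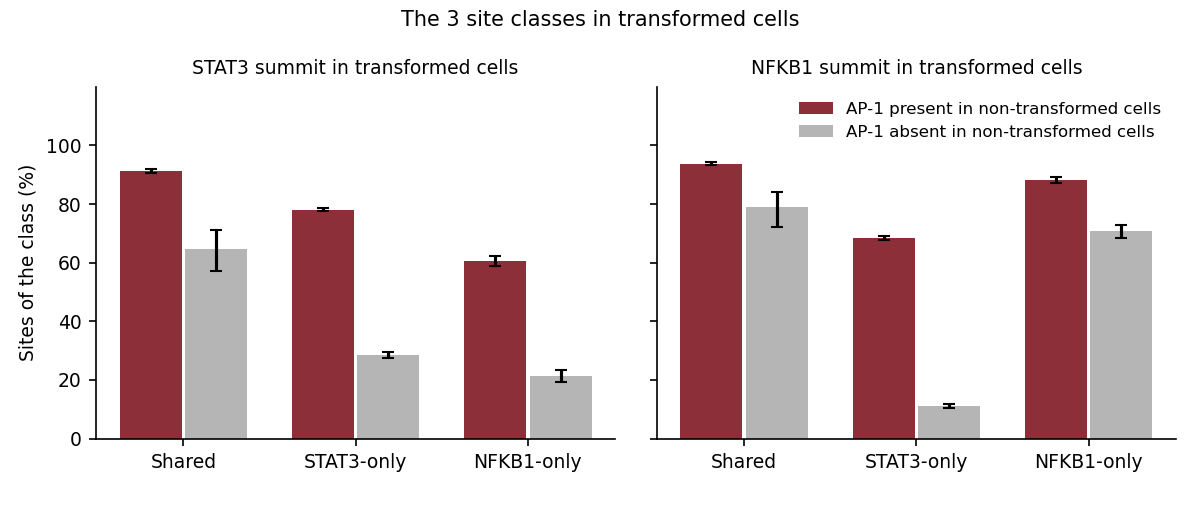
Share of each class of non-transformed cells (percent) with a STAT3 (left) or NFKB1 (right) summit within 300 bp in transformed cells, for sites with and without AP-1 in non-transformed cells. Error bars are Wilson 95% intervals. NFKB1 was found at 68.4% of STAT3-only sites with AP-1 and 11.0% without, and STAT3 at 60.6% and 21.3% of NFKB1-only sites.

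Where the missing protein was found in transformed cells, it was weaker than at shared sites. Shared sites were picked for a peak of that protein in non-transformed cells and the others for its absence. The difference is therefore partly built into the classes, and the size of that part was not tested. The median NFKB1 fold enrichment in transformed cells was 7.42 (7.33 to 7.50) at STAT3-only sites and 14.0 (13.8 to 14.1) at shared sites. For STAT3 it was 7.88 (7.88 to 8.17) at NFKB1-only sites and 16.5 (16.4 to 17.0) at shared sites. At sites where STAT3 was found in both states, its reads over the summit per 1000000 filtered reads were higher in transformed cells by a median factor of 1.68 (1.65 to 1.70) at shared and 1.71 (1.69 to 1.73) at STAT3-only sites. The same factor for NFKB1 was 1.06 (1.05 to 1.07) at shared and 1.00 (0.962 to 1.00) at NFKB1-only sites. The factors of STAT3 and NFKB1 cannot be set side by side, since they cover only peaks called in both states. The lowest value in the NFKB1 lists was 0.827 in non-transformed and 0.413 in transformed cells, and in the STAT3 lists 0.457 and 0.446. Reads were also extended to unequal lengths, 135 and 120 bp for NFKB1 and 150 and 119 bp for STAT3.

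The same comparison made within transformed cells gave the same order of AP-1 shares. Of the 73822 NFKB1 sites 62.1% had STAT3, and of the 80265 STAT3 sites 57.1% had NFKB1. With whole lists, AP-1 was found at 97.6% of shared, 74.7% of STAT3-only and 67.0% of NFKB1-only sites. With whole lists, the rho of the strengths was 0.37 over 44890 pairs, above the 0.12 of non-transformed cells. It was not above 0.12 in the cut lists described next. When the lists of transformed cells were cut to the 42810 and 13252 most significant peaks, AP-1 was found at 99.4%, 93.2% and 86.6% of these classes, rho was 0.08 over 9385 pairs, and 70.8% of NFKB1 sites had STAT3.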

How the data were processed

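The samples were assigned to protein and state from the sample titles, with 1 library per protein and state. The authors aligned the reads to hg19 with Bowtie and called peaks in each library with MACS 2.0.10.20131216, without a control library, at a q-value cutoff of 0.05 and with 1 read kept per position, per the file headers and the processing notes. The deposited pileup is a signal, counting the extended reads that cover the summit without scaling for depth. The deposited significance values are −log10 of the p-value and q-value. Fold enrichment, also as deposited, is the ratio of this pileup to the local background over up to 1000000 bp, each with 1 added. Where the background is low, it therefore follows the read count, and so the depth, of its library. The deposited positions are 1-based hg19 coordinates and peak lengths in bp. The lists came without an input, so local copy number and open chromatin enter the fold enrichment, and a deeper library can pass the cutoff at weaker sites.

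All peaks on chromosomes 1 to 22 and X were used. Summits were matched within 300 bp, AP-1 was a FOS, JUN or JUNB summit within 300 bp (from the STAT3 summit at shared sites), and correlations used mutually nearest pairs. Deciles and quartiles are ranks of fold enrichment within a list. The computations used Python 3.11.15, numpy 2.4.6, pandas 2.3.3, scipy 1.17.1 and matplotlib 3.10.9, and the matching was tested on simulated data. The alternatives were a match within 100 bp, overlap of whole peaks, a stricter q-value, shorter STAT3 or both lists, at least 2 reads per 1000000, merged summits, all 3 AP-1 proteins, and other measures of strength.

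Named sites are the 6 shared pairs with the smallest sum of within-list ranks by −log10 q and the 6 highest STAT3-only and NFKB1-only sites, with the first 3 with and without AP-1 in each class described in full. Classes, lists and rules were chosen with earlier results of these data known. Peaks run past the end of the chromosome of GRCh38, the reference at hand, on 14 of 23 chromosomes. Gene names, site sequences and motif searches, which need hg19, were therefore not analysed here.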

Additional observations from a re-analysis of the deposited data

Results flagged for a closer look

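Peaks outside the chromosomes compared were set aside. The non-transformed STAT3 list has 52 peaks on chromosome Y and 10 on the mitochondrial genome, and the non-transformed NFKB1 list has 34 and 10. They are signal in data that no comparison used, there is no control library to set them against, and their origin was not tested.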

How the results depend on the processing

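AP-1 was most frequent at shared, then STAT3-only, then NFKB1-only sites under 8 of 8 alternatives, with gaps of at least 4.30 and 5.16 percentage points. Values moved beyond the counting interval under 33 of the 47 combinations of result and alternative, and the shares are given as NFKB1 sites with STAT3, STAT3 sites with NFKB1, then AP-1 at shared, STAT3-only and NFKB1-only sites. A match within 100 bp gave 50.1%, 15.5%, 94.0%, 67.6% and 62.4%. A −log10 q of at least 10 in every list gave 40.3%, 13.0%, 93.2%, 79.2% and 59.3%, with a rho of 0.076. The STAT3 list cut to 13252 peaks gave 35.1%, 34.6%, 99.0%, 92.0% and 79.0%. At least 2 reads per 1000000 gave 22.7%, 19.5%, 99.6%, 95.3% and 85.8%, with a rho of 0.17. The 5000 most significant peaks of both lists gave 19.7%, 19.6%, 99.7%, 95.4% and 86.2%, with a rho of 0.10. Whole-peak overlap moved only AP-1 at STAT3-only (75.1%) and NFKB1-only sites (66.0%), and all 3 AP-1 proteins gave 72.5%, 39.2% and 28.5%. Fewer peaks in a list leave fewer matches by construction, and the share of NFKB1 sites with STAT3 depended on where the lists were cut. Merging summits and other measures of strength moved nothing beyond the interval. No paired analysis was possible because each group has 1 library, and for the same reason no replicate could be left out. Depth limits NFKB1 most: a STAT3 site under 4 NFKB1 reads counts as STAT3-only.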

Other observations

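Chromosome X had the lowest overlap of the 23 chromosomes, with NFKB1 at 12.3% of its 924 STAT3 sites and STAT3 at 45.9% of its 255 NFKB1 sites. The next lowest chromosomes were at 16.0% and 56.6%, and the highest at 22.8% (chromosome 8) and 66.3% (chromosome 20). AP-1 on X was at 100% of shared, 74.9% of STAT3-only and 63.8% of NFKB1-only sites, of which the first is the highest of the chromosomes.

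AP-1 was less frequent just outside the match distance than just inside it. It was counted within the same 300 bp of the same summit as the partner. An AP-1 summit close to a partner outside that limit was therefore mostly not counted, and a drop at this distance is partly built in. The size of that part was not tested. STAT3 sites with an NFKB1 summit between 100 and 200 bp away had AP-1 at 98.0%, those between 200 and 300 bp at 92.8%, and those between 300 and 400 bp at 73.7%, which is near the 78.1% of sites between 10000 and 100000 bp. NFKB1 sites with a STAT3 summit at these distances had AP-1 at 97.7%, 92.6%, 80.4% and 66.3%.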
